A study of Mus musculus with 14 samples.

Results

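Matricellular glycoproteins are secreted proteins that sit in the extracellular matrix and change how cells adhere, migrate and respond to growth factors. This report is about 10 mouse genes of this kind or closely tied to it: Sparc, Sparcl1, Postn, Tnc, Thbs1, Thbs2, Fn1, Tgfbi, Mgp and Cd44. They were chosen by name, with earlier results of these data known, and are 10 of the 22430 genes of the count table. All 10 were present and all 10 passed the filter on low counts. Tnc was the nearest to it, reaching the filter's level in 3 of 3 VSMC progerin pools and in 1 pool of each other group.

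RNA was measured in lysates of the inner, endothelium-lined layer (intima) of the thoracic aorta, taken from 14 pools of mice, 12 to 14 mice in each. All mice were Apoe-/- by their labels, a loss of apolipoprotein E that makes mice prone to atherosclerosis. The ubiquitous progerin group (Apoe-/-LmnaG609G/G609G, 3 pools) makes progerin, a shortened lamin A that causes Hutchinson-Gilford progeria, in all cells, and its control was Apoe-/-Lmna+/+ (wild-type control, 4 pools). In the VSMC progerin group (Apoe-/-LmnaLCS/LCS with SM22Cre, 3 pools) a Cre recombinase driven by the SM22α promoter is described as giving progerin in vascular smooth muscle cells (VSMC), and its control was Apoe-/-LmnaLCS/LCS without Cre (lamin C-only control, 4 pools). Both groups on the LCS allele therefore share a background that makes lamin C without lamin A. Age, sex and wider strain are not stated in the sources used here, and which cells made progerin was not tested. Each library is a separate pool, so errors and p-values describe the spread between pools and not between single mice.

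As background, Sparc and Sparcl1 encode related collagen-binding glycoproteins, SPARC and hevin. Periostin (Postn) and TGF-beta-induced protein (Tgfbi) are built from fasciclin domains and bind collagen and integrins. Tenascin-C (Tnc) and the thrombospondins (Thbs1, Thbs2) are large oligomeric proteins that are induced in injured vessels. Both thrombospondins can inhibit angiogenesis, and the product of Thbs1 can activate latent TGF-beta. Fibronectin (Fn1) is an adhesive scaffold on which other matrix is laid down, matrix Gla protein (Mgp) is a vitamin K-dependent inhibitor of arterial calcification, and Cd44 is a cell surface receptor for hyaluronan, osteopontin and other matrix ligands.

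In VSMC progerin 8 of the 10 genes rose against lamin C-only control and 0 fell (edgeR's quasi-likelihood test; 8 also at an unadjusted p under 0.05, and 8 by DESeq2), where 42.0% of all 14269 genes tested were called, 19.0% higher and 23.0% lower. The median log2 change of the 10 was 1.56, beside -0.03 over all genes tested. In ubiquitous progerin 3 rose (Tgfbi, Cd44 and Sparcl1), 2 fell (Sparc and Mgp) and 5 did not pass the test against wild-type control. There 54.6% of all genes were called, 26.3% higher and 28.3% lower, so the number called among the 10 was close to that background, and their median log2 change was -0.13 beside -0.005 over all genes. None of the 10 was called between the lamin C-only and wild-type controls by edgeR. The direct test of the difference, ubiquitous progerin effect minus VSMC progerin effect, was passed by 8 of 10 genes, 2 with a positive and 6 with a negative difference, where 44.2% of all genes passed it, 22.4% positive and 21.8% negative. With upper-quartile scaling, 57.4% of the genes called in VSMC progerin were higher, where TMM scaling gave 45.2%, and the member counts stayed the same.

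Promoters are shown for genes that moved together or against each other. Of the 10 genes, 6 had a promoter in the RefSeq table for GRCm38.p6. The 250 bases before the annotated start are given 5′ to 3′ for Postn and Thbs2, which rose together in VSMC progerin, for Sparc, which moved in opposite directions, and for Tgfbi, which rose in both models. Capitals mark TATAAA on either strand, and the start nearest the GENCODE start was taken for Postn. The RefSeq start of Sparc puts its window inside the GENCODE span of the gene (55394500 to 55423183). The Tgfbi window runs past the GENCODE start at 56609523. What these windows hold depends on the start used.
Postn promoter, chr3:54360857-54361106, plus strand: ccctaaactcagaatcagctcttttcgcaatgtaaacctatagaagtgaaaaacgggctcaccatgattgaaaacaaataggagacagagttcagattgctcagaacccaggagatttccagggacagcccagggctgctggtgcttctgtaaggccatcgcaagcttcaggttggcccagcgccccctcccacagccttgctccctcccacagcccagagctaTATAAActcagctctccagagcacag
Thbs2 promoter, chr17:14694263-14694512, minus strand: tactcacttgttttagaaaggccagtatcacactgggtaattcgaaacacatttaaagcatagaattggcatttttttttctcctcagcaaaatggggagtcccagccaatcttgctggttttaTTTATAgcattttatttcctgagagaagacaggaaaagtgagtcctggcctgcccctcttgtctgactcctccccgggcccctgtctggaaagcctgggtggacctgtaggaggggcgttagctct
Sparc promoter, chr11:55420081-55420330, minus strand: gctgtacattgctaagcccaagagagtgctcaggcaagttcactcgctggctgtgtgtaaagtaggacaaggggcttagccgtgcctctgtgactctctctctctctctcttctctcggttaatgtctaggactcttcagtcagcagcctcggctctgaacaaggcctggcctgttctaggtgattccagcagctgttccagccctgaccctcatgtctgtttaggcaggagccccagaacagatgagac
Tgfbi promoter, chr13:56609336-56609585, plus strand: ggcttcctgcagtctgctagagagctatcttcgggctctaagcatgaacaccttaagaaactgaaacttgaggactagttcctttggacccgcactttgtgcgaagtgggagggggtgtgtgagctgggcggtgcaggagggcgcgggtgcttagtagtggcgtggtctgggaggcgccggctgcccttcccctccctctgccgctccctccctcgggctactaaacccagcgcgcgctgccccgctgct
TATAAA lay 26 to 21 bases before the start of Postn and, on the other strand, 126 to 121 bases before that of Thbs2, and it was in neither the Sparc nor the Tgfbi window. It occurred in 12.4% of the 32851 promoters of the table. The letters TGANTCA (the AP-1 motif, in 6.75% of all promoters), GGAATG (a TEAD motif, in 12.6%), GTCTAGAC (a SMAD palindrome, in 0.167%) and the CArG box bound by serum response factor (in 1.47%) were searched on both strands and were in none of these windows.

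Library totals ran from 27169784 to 35692385 estimated counts. As a sum, the endothelial markers used to check the tissue were abundant in every pool, at 20125 to 24925 counts per 1000000 after TMM scaling (CPM below). Kdr, a marker of this list, was low, at 6.41 to 13.7 CPM. Summed smooth muscle markers lay between 341 and 1001 CPM, so transcripts of these markers were present in the lysates. Tagln and Acta2 made up most of that sum in every group, while Myh11 lay at 2.78 to 28.4 CPM. Lmna stood at 115 to 121 CPM in ubiquitous progerin against 113 to 125 CPM in wild-type control, and at 207 to 256 CPM in VSMC progerin against 126 to 142 CPM in lamin C-only control. Lamin A, lamin C and progerin share this gene, and a count per gene cannot check which of them was made. Apoe was counted at 44.4 to 72.1 CPM in the 14 pools, and a count over the whole gene does not check its disrupted part. VSMC progerin pool 3 carried 8556 CPM of summed red blood cell markers where the other pools had 124 to 586 CPM. All 8 genes called in VSMC progerin remained called without that pool by edgeR, and the control pools that stood apart are named with the genes they touch. In a lysate of mixed cells, a change in the number of cells of a type and a change in RNA per cell cannot be told apart.

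The 10 genes spanned a wide range of levels. Per kilobase of annotated exon, Mgp was the highest in each of the 4 groups, at a mean of 1055 ± 65 CPM per kb in ubiquitous progerin against 1616 ± 135 CPM per kb in wild-type control, and 3265 ± 212 CPM per kb in VSMC progerin against 1584 ± 71 CPM per kb in lamin C-only control (SD, n = 3 in each progerin group and 4 in each control). Sparc, Thbs1 and Fn1 came next in every group. In wild-type control Sparc had 289.7 to 293 CPM per kb, Thbs1 155 to 305 and Fn1 210.4 to 258, so Sparc lay above Fn1 in every pool and the wide spread of Thbs1 covered both. The other 6 lay far lower in the controls. In wild-type control Tgfbi averaged 3.09 CPM per kb, Sparcl1 2.16, Cd44 1.22, Postn 0.669, Thbs2 0.596 and Tnc 0.0427, and the ranges of Tgfbi, Sparcl1 and Cd44 did not overlap one another, while that of Postn overlapped those of Cd44 and Thbs2. In VSMC progerin Postn came sixth, at 11.2 CPM per kb, against ninth in lamin C-only control, at 0.370 CPM per kb. Mitochondrially encoded genes took 7.29% to 8.22% of the counts in ubiquitous progerin against 4.60% to 5.42% in wild-type control, and 11.5% to 12.07% in VSMC progerin against 3.53% to 4.61% in lamin C-only control. With these genes removed, the numbers called among the 10 were the same in every comparison. Together the 10 genes took 0.561% to 0.626% of the counts in ubiquitous progerin against 0.652% to 0.802% in wild-type control, and 1.32% to 1.37% in VSMC progerin against 0.719% to 0.775% in lamin C-only control.

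**Figure D1:**
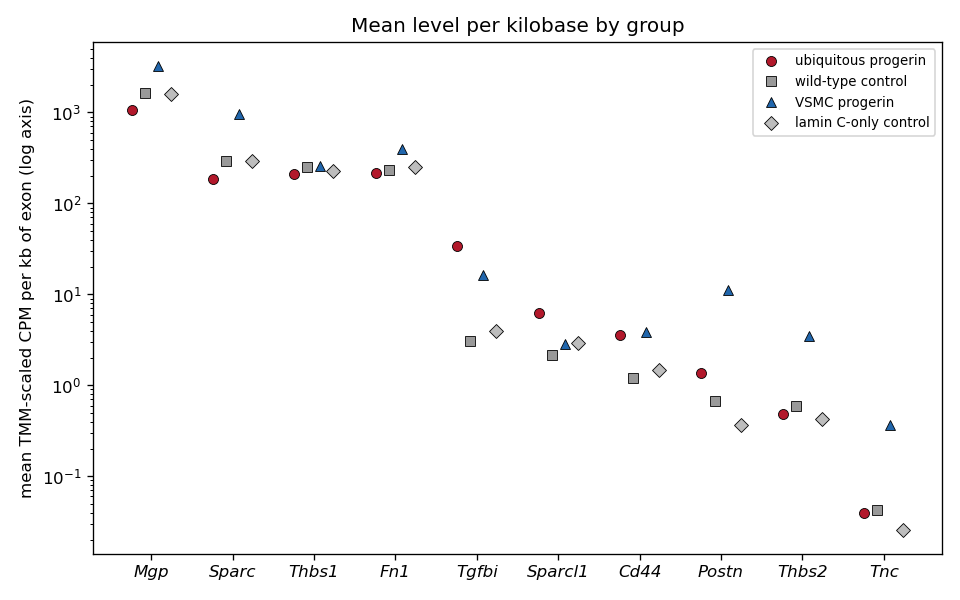
Mean level of each gene per kilobase of annotated exon, in TMM-scaled CPM per kb on a log axis, for the 4 groups (3 pools in each progerin group, 4 in each control). Mgp leads in every group, at 1055 to 3265 CPM per kb, and Tnc is lowest, at 0.0255 to 0.368 CPM per kb.

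Sparc, the collagen-binding glycoprotein SPARC (ENSMUSG00000018593, GRCm38 chromosome 11, 55394500 to 55423183), moved in opposite directions with a small spread. Its level was 713, 686 and 706 CPM in the ubiquitous progerin pools, against 1106, 1109, 1097 and 1104 CPM in the wild-type control pools. It was 3498, 3772 and 3697 CPM in the VSMC progerin pools, against 1090, 1121, 1057 and 1148 CPM in the lamin C-only pools. Neither pair of groups overlapped, and both control groups averaged 1104 CPM. On the log2 scale edgeR gave a fall by 0.65 in ubiquitous progerin (SE 0.05, adjusted p = 1.3e-09) and a rise of 1.73 ± 0.05 in VSMC progerin (adjusted p = 2.4e-15). The effect in ubiquitous progerin minus that in VSMC progerin was -2.38 ± 0.07 (adjusted p = 5.4e-15 by edgeR).

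Sparcl1, which encodes hevin, a relative of SPARC (ENSMUSG00000029309, chromosome 5, 104079111 to 104113733), did the reverse in ubiquitous progerin. It had 18.3, 21.6 and 15.7 CPM in ubiquitous progerin, against 7.62, 7.40, 5.27 and 5.08 CPM in wild-type control. It rose there, with a log2 change of 1.55 ± 0.27 (edgeR, adjusted p = 0.00019) and no overlap between the groups. In VSMC progerin it had 7.86, 7.19 and 9.89 CPM, against 8.13, 5.63, 6.48 and 14.5 CPM in lamin C-only control, a log2 change of -0.06 ± 0.27 that did not pass the test (adjusted p = 0.88 by edgeR). The highest of those controls was pool 4, and without it the log2 change was 0.30 (adjusted p = 0.24 by edgeR). Within a library, where scaling has no part, Sparc exceeded Sparcl1 by a mean of 5.25 ± 0.25 log2 units of counts in ubiquitous progerin against 7.47 ± 0.31 in wild-type control, and by 8.79 ± 0.24 in VSMC progerin against 7.09 ± 0.57 in lamin C-only control (SD).

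Postn, which encodes periostin, a fasciclin protein of collagen assembly and wound repair (ENSMUSG00000027750, chromosome 3, 54361109 to 54391037), had the largest change of the 10. It stood at 112.5, 97.0 and 81.7 CPM in VSMC progerin, against 1.82, 2.27, 4.37 and 4.44 CPM in lamin C-only control. Every VSMC progerin pool was far above every control pool, and the log2 change was 4.91 ± 0.57 (adjusted p = 4.7e-05 by edgeR). In ubiquitous progerin the levels were 11.9, 6.60 and 16.8 CPM, against 3.69, 13.4, 3.06 and 3.14 CPM in wild-type control. These groups overlapped through wild-type pool 2, and the log2 change of 1.01 ± 0.55 did not pass the test (adjusted p = 0.14 by edgeR). Without that pool it was 1.84 ± 0.40 (adjusted p = 0.0032 by edgeR), and limma-voom, with all pools, gave 1.24 ± 0.42 (adjusted p = 0.019). The difference between both progerin effects was -3.90 ± 0.79 (adjusted p = 0.0022 by edgeR), and -3.07 without wild-type pool 2 (adjusted p = 0.0011 by edgeR).

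Tgfbi, a fasciclin protein named for its induction by TGF-beta (ENSMUSG00000035493, chromosome 13, 56609523 to 56639562), rose in both models and more in ubiquitous progerin. Its levels were 137, 124 and 124 CPM in ubiquitous progerin, against 12.9, 10.7, 12.5 and 10.5 CPM in wild-type control. They were 62.3, 58.7 and 62.7 CPM in VSMC progerin, against 11.3, 11.1, 10.7 and 26.9 CPM in lamin C-only control. Neither pair of groups overlapped, and lamin C-only pool 4 stood above all other control pools. The log2 change was 3.46 ± 0.29 in ubiquitous progerin (adjusted p = 1.5e-06) and 2.03 ± 0.28 in VSMC progerin (adjusted p = 0.00014), and the difference was 1.43 ± 0.39 (adjusted p = 0.012), all by edgeR. Without lamin C-only pool 4 the VSMC progerin change was 2.47 and the difference 0.99 (adjusted p = 9.3e-07 by edgeR). Within libraries, Postn minus Tgfbi was -3.54 ± 0.67 log2 units of counts in ubiquitous progerin against -1.31 ± 1.09 in wild-type control (SD). It was 0.65 ± 0.24 in VSMC progerin against -2.20 ± 0.62 in lamin C-only control (SD), so Postn exceeded Tgfbi in counts in VSMC progerin.

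**Figure D2:**
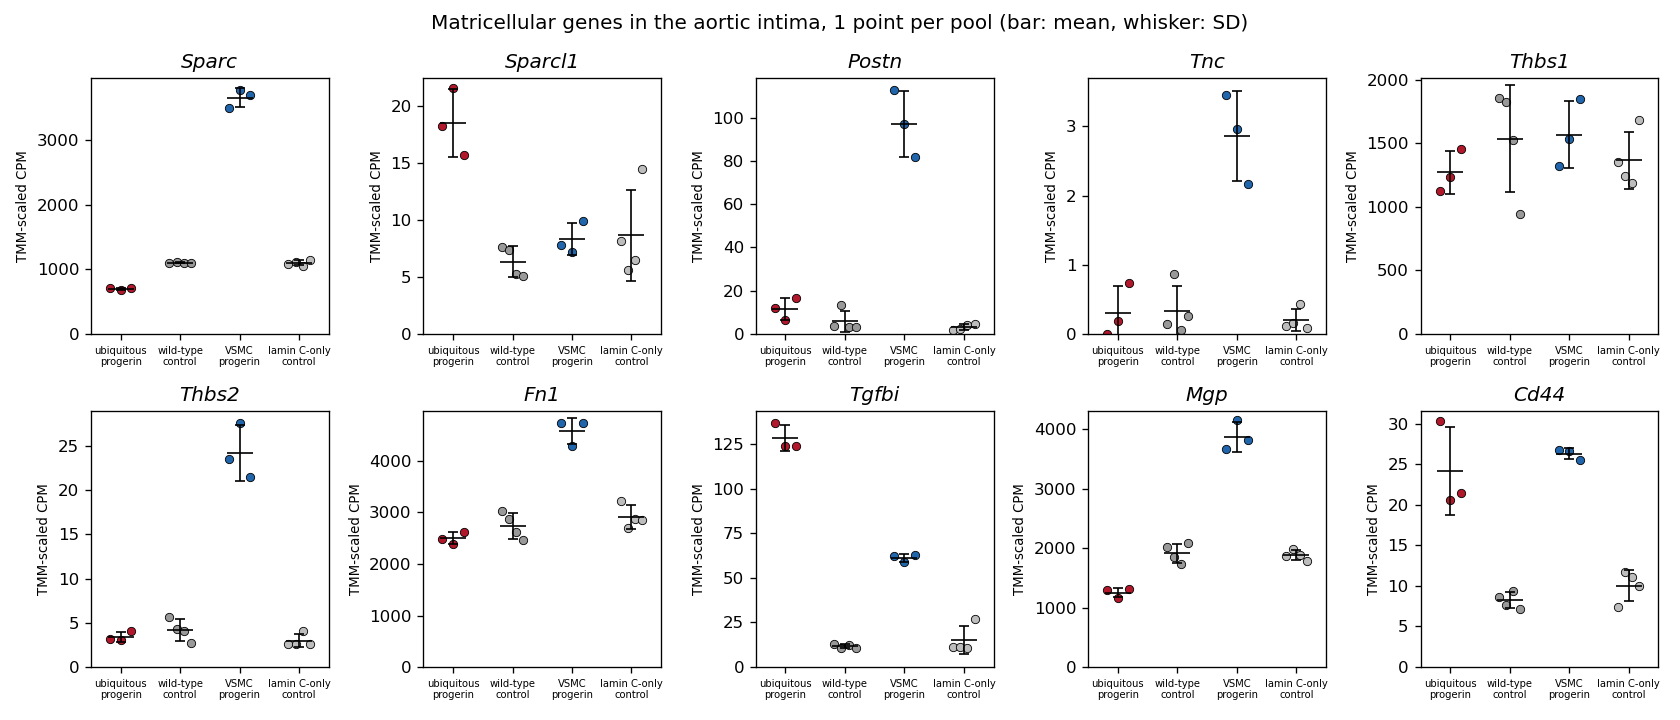
Level of each of the 10 genes in every pool, in TMM-scaled CPM on linear axes from 0, by group (bar, mean; whisker, SD, cut at 0 for Tnc). Sparc at 3498 to 3772 CPM in VSMC progerin and Tgfbi at 124 to 137 CPM in ubiquitous progerin stand clear of their controls, while Thbs1 overlaps in all 4 groups.

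Tnc, which encodes tenascin-C, an oligomeric matrix protein of injury and development (ENSMUSG00000028364, chromosome 4, 63959785 to 64047015), was close to the detection limit outside VSMC progerin. It had 3.45, 2.97 and 2.16 CPM in VSMC progerin, against 0.112, 0.155, 0.434 and 0.0919 CPM in lamin C-only control. The pools did not overlap, and the log2 change was 3.81 ± 0.88 (adjusted p = 0.0017 by edgeR). In ubiquitous progerin it had 0, 0.185 and 0.733 CPM, against 0.142, 0.865, 0.0651 and 0.254 CPM in wild-type control. The pool at 0 allows up to 0.102 CPM (3 counts), a limit that covers counting error only, and a difference was not detectable there at this depth (log2 change -0.12 ± 0.91, adjusted p = 0.92 by edgeR). The sign turned to 0.97 without wild-type pool 2, and to 0.47 and 0.13 without ubiquitous progerin pools 1 and 2. The difference between both progerin effects was -3.93 ± 1.27 (adjusted p = 0.017 by edgeR) and did not pass without wild-type pool 2 (-2.84, adjusted p = 0.075 by edgeR). It was -5.66 without ubiquitous progerin pool 3 and -4.65 without lamin C-only pool 3, and the VSMC progerin change was 4.53 without the same lamin C-only pool.

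The thrombospondins, inhibitors of angiogenesis that also bind TGF-beta complexes and proteases, parted ways. Thbs2 (ENSMUSG00000023885, chromosome 17, 14665500 to 14694235) had 23.6, 27.7 and 21.5 CPM in VSMC progerin, against 2.63, 2.64, 4.12 and 2.61 CPM in lamin C-only control. Its log2 change was 3.01 ± 0.21 (edgeR, adjusted p = 9.4e-10) with every VSMC progerin pool above every control pool. In ubiquitous progerin it had 3.21, 3.04 and 4.05 CPM, against 5.67, 4.26, 4.07 and 2.699 CPM in wild-type control, and the overlapping groups gave a log2 change of -0.28 ± 0.22 (adjusted p = 0.31 by edgeR). The difference between both effects was -3.29 ± 0.31 (adjusted p = 5.2e-08 by edgeR).

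Thbs1 (ENSMUSG00000040152, chromosome 2, 118111876 to 118127133) was abundant and variable. It had 1125, 1236 and 1455 CPM in ubiquitous progerin against 1853, 1824, 1528 and 944 CPM in wild-type control, and 1324, 1536 and 1846 CPM in VSMC progerin against 1350, 1243, 1188 and 1686 CPM in lamin C-only control. Both pairs of groups overlapped. The log2 changes of -0.27 ± 0.23 and 0.20 ± 0.23 did not pass the test (adjusted p = 0.34 and 0.52 by edgeR), nor did their difference of -0.47 ± 0.32 (adjusted p = 0.26 by edgeR). Wild-type pool 4 was the lowest of the 14 pools, and without it Thbs1 was called lower in ubiquitous progerin (-0.45, adjusted p = 0.036) and the difference passed (-0.65, adjusted p = 0.034), by edgeR. Within libraries Thbs1 exceeded Thbs2 by 8.53 ± 0.11 log2 units in ubiquitous progerin against 8.52 ± 0.17 in wild-type control (SD). The excess was 6.01 ± 0.36 in VSMC progerin against 8.84 ± 0.49 in lamin C-only control (SD).

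Fn1, the adhesive scaffold fibronectin (ENSMUSG00000026193, chromosome 1, 71585520 to 71653200), had the highest counts of the 10. It had 4735, 4293 and 4725 CPM in VSMC progerin, against 3228, 2696, 2869 and 2856 CPM in lamin C-only control. Its log2 change was 0.65 ± 0.07 (edgeR, adjusted p = 3.3e-07), the smallest of the 8 rises. In ubiquitous progerin it had 2481, 2389 and 2621 CPM, against 3019, 2869, 2620 and 2458 CPM in wild-type control, with overlapping pools and a log2 change of -0.14 ± 0.07 (adjusted p = 0.12 by edgeR). That value passed the test without wild-type pool 4 (-0.18, adjusted p = 0.035 by edgeR). The difference between both effects was -0.79 ± 0.10 (adjusted p = 2.7e-06 by edgeR). Counts per gene do not separate fibronectin's spliced forms.

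Mgp, the inhibitor of arterial calcification matrix Gla protein (ENSMUSG00000030218, chromosome 6, 136872435 to 136875823), moved like Sparc. It had 1289, 1164 and 1305 CPM in ubiquitous progerin, against 2011, 1843, 1733 and 2086 CPM in wild-type control. It had 3661, 4151 and 3813 CPM in VSMC progerin, against 1860, 1990, 1886 and 1785 CPM in lamin C-only control. Neither pair overlapped: Mgp fell by 0.62 on the log2 scale in ubiquitous progerin (SE 0.07, adjusted p = 2.3e-07) and rose by 1.04 ± 0.07 in VSMC progerin (adjusted p = 2.2e-10), with a difference of -1.66 ± 0.10 (adjusted p = 7.8e-11), all by edgeR. The log2 ratio of Sparc to Mgp within a library was -0.83 ± 0.06 in ubiquitous progerin against -0.79 ± 0.12 in wild-type control, and -0.08 ± 0.05 in VSMC progerin against -0.77 ± 0.09 in lamin C-only control (SD).

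Cd44, the hyaluronan receptor (ENSMUSG00000005087, chromosome 2, 102811141 to 102901665), rose in both models. It had 30.4, 20.6 and 21.4 CPM in ubiquitous progerin, against 8.68, 7.66, 9.43 and 7.18 CPM in wild-type control. It had 26.8, 26.6 and 25.5 CPM in VSMC progerin, against 7.38, 11.7, 11.1 and 10.1 CPM in lamin C-only control. All progerin pools lay above all control pools, and the log2 changes were 1.55 ± 0.15 (adjusted p = 5.0e-08) and 1.39 ± 0.15 (adjusted p = 3.5e-07) by edgeR. Their difference was 0.16 ± 0.22 (adjusted p = 0.58 by edgeR), which does not show that the effects are equal.

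**Figure D3:**
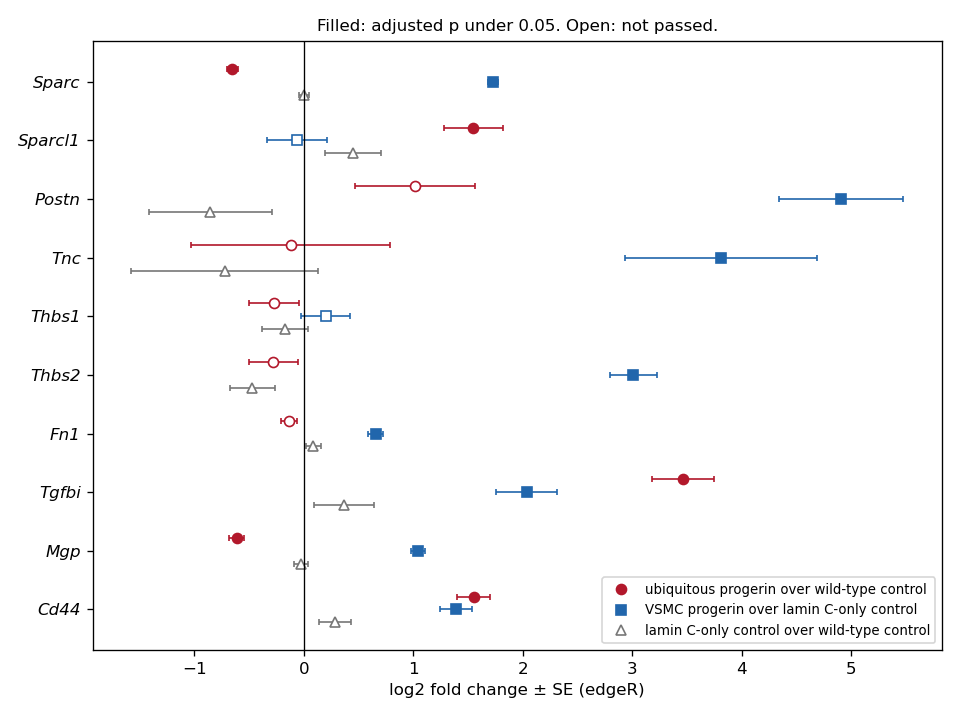
log2 fold change with its SE (edgeR) of the 10 genes in ubiquitous progerin over wild-type control, VSMC progerin over lamin C-only control and lamin C-only control over wild-type control; filled symbols passed an adjusted p of 0.05. Sparc and Mgp lie left of 0 in ubiquitous progerin, at -0.65 and -0.62, and right of it in VSMC progerin, at 1.73 and 1.04.

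The lamin C-only and wild-type controls were compared to ask whether lamin C without lamin A alters these genes. Of the 10 genes, 0 were called by edgeR, where 0.175% of all genes were called (0.0911% higher and 0.0841% lower), and 0 by DESeq2 or limma-voom. At an unadjusted p under 0.05 the count was 1, Thbs2, with 2.63, 2.64, 4.12 and 2.61 CPM in the lamin C-only pools, against 5.67, 4.26, 4.07 and 2.699 CPM in wild-type control (log2 change -0.47 ± 0.21, adjusted p = 0.62 by edgeR). The smallest standard errors were those of Sparc, with a log2 change of 0.00 ± 0.05, and Mgp, at -0.03 ± 0.06, while Postn (-0.86 ± 0.56) and Tnc (-0.72 ± 0.85) were measured too loosely to bound a difference of that size.

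Markers of other cell types moved with several of these genes. Beside the marker counts here and below, 54.6% of all genes tested were called in ubiquitous progerin, 26.3% higher and 28.3% lower. In VSMC progerin the share was 42.0%, 19.0% higher and 23.0% lower. All 10 macrophage markers rose in ubiquitous progerin, to a summed 1119 to 1739 CPM against 82.1 to 163 CPM in wild-type control, and all 10 rose in VSMC progerin, to 814 to 974 CPM against 76.6 to 274 CPM in lamin C-only control. Tgfbi and Cd44, which macrophages are known to express, rose in the same 2 groups, and the part of these cells in that result was not tested. Among lamin C-only pools, pool 4 had the highest Tgfbi (26.9 CPM) and 143 CPM of macrophage markers. Pool 2 had 274 CPM of these markers and 11.1 CPM of Tgfbi. Pool 4 had the highest summed adipocyte markers of the 4, at 521 CPM where the others had 130 to 210 CPM. What sets these single pools apart was not tested. No macrophage marker was at 0 in any pool.

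Adventitial fibroblast markers moved with the genes that rose in VSMC progerin. Of 10 markers 7 rose and 1 fell, and their sum was 2544 to 3202 CPM in VSMC progerin against 1356 to 1665 CPM in lamin C-only control. The markers divided: Pi16 averaged 698 CPM in VSMC progerin against 230 CPM in lamin C-only control, and Dpt 57.3 against 20.2 CPM, whereas Pdgfra averaged 6.19 against 6.30 CPM. Ly6a and Pi16 made up most of the sum in VSMC progerin, Ly6a at a mean of 1491 CPM against 418 CPM in lamin C-only control. Gsn averaged 384 against 546 CPM. In ubiquitous progerin 2 of the 10 rose and 3 fell, with a sum of 926 to 1115 CPM against 1315 to 1384 CPM in wild-type control. The lower sum came from Pi16 (mean 59.0 against 207 CPM), Ly6a (183 against 336 CPM) and Gsn (425 against 551 CPM). The other markers had higher means than in wild-type control, and the median log2 change of the 10 was 0.31. No fibroblast marker was at 0 in any pool. Of 10 smooth muscle markers 0 rose and 4 fell in VSMC progerin by edgeR, at a sum of 341 to 407 CPM against 435 to 599 CPM in lamin C-only control, and 1 rose and 4 fell in ubiquitous progerin, at 956 to 1001 CPM against 525.8 to 875 CPM in wild-type control. The marker that rose was Tagln, which encodes SM22α, at a mean of 774 CPM in ubiquitous progerin against 258 CPM in wild-type control. The other 9 markers summed to 191 to 219 CPM in ubiquitous progerin against 309.5 to 515 CPM in wild-type control, with Acta2, smooth muscle actin, at a mean of 92.6 against 213 CPM. Wild-type pool 2, the pool with the highest Postn and Tnc of its group, also had that group's highest smooth muscle sum, 875 CPM. Endothelial markers summed to 20125 to 21162 CPM in ubiquitous progerin against 22801 to 24925 CPM in wild-type control, and to 22494 to 23113 CPM in VSMC progerin against 22089 to 24315 CPM in lamin C-only control. Of these 10 markers 2 rose and 6 fell in ubiquitous progerin, and 5 rose and 4 fell in VSMC progerin. Pecam1 and Vwf made up most of the sum. The others divided in ubiquitous progerin. Tek, an angiopoietin receptor, averaged 503 CPM against 1243 CPM in wild-type control, whereas Emcn averaged 256 CPM against 114 CPM. The part of these cell types in the results was not tested. Totals called among smooth muscle markers, and among fibroblast markers in ubiquitous progerin, were near the shares of all genes. Pericyte markers rose in 0 of 6 and fell in 2 in ubiquitous progerin by edgeR, and rose in 1 and fell in 1 in VSMC progerin. Adipocyte markers rose in 4 of 5 in VSMC progerin (732 to 1069 CPM against 130 to 521 CPM in lamin C-only control) and in 0 of 5 in ubiquitous progerin. Red blood cell markers rose in 5 of 5 in VSMC progerin and in 0 of 5 in ubiquitous progerin by edgeR. Their sum in VSMC progerin was 8556 CPM in pool 3. In pools 1 and 2 it was 465 and 571 CPM, within the 312 to 586 CPM of lamin C-only control. Lymphocyte markers stayed at or under a summed 5.07 CPM and mesothelial markers at or under 2.42 CPM in every pool.

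**Figure D4:**
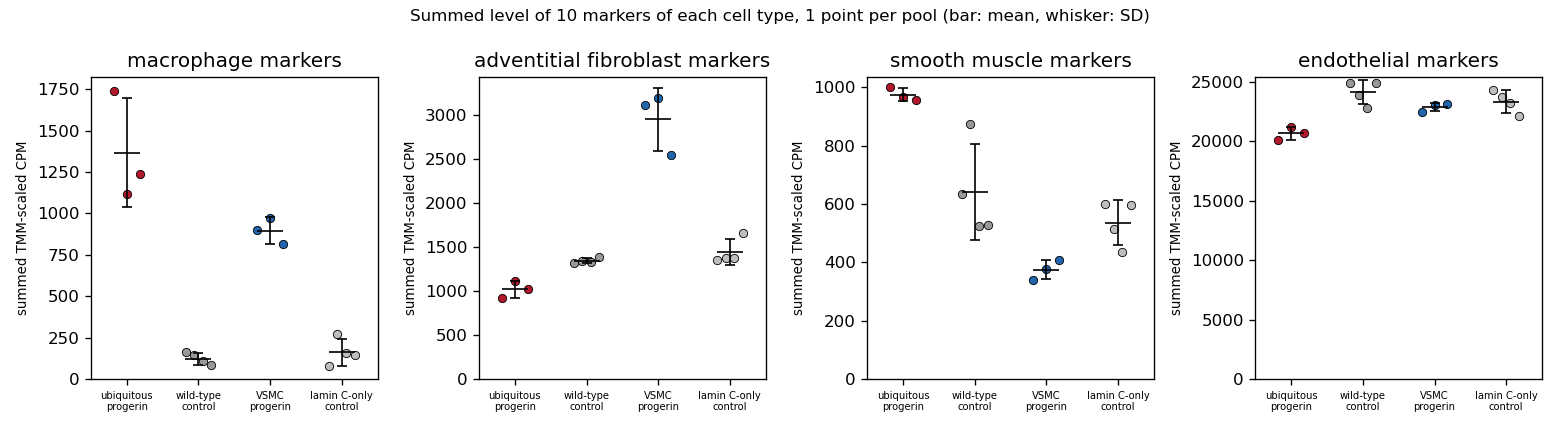
Summed TMM-scaled CPM of 10 macrophage, adventitial fibroblast, smooth muscle and endothelial markers in every pool, on linear axes from 0 (bar, mean; whisker, SD). Macrophage sums are 1119 to 1739 CPM in ubiquitous progerin and 814 to 974 CPM in VSMC progerin, above all control pools. Fibroblast sums are highest in VSMC progerin, at 2544 to 3202 CPM, most of it from Ly6a (mean 1491 CPM) and Pi16 (mean 698 CPM). The high smooth muscle sum in ubiquitous progerin is that of Tagln (mean 774 CPM), without which it is 191 to 219 CPM.

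Other matricellular and secreted matrix genes followed the members in part. Of 25 such genes, 20 were tested. In VSMC progerin 8 rose and 1 fell (median log2 change 0.53, against -0.03 over all genes). In ubiquitous progerin 6 rose and 7 fell (median -0.03). For this list and those below, 42.0% of all genes tested were called in VSMC progerin, 19.0% higher and 23.0% lower. In ubiquitous progerin the share was 54.6%, 26.3% higher and 28.3% lower. The total called of this list in VSMC progerin was near that share, though most were higher. Fstl1, a secreted relative of SPARC, averaged 690 CPM in ubiquitous progerin against 1426 CPM in wild-type control (log2 change -1.05), and 2008 CPM in VSMC progerin against 1471 CPM in lamin C-only control (0.45), the same opposite signs as Sparc. Thbs3, a further thrombospondin, rose in both models, by 0.69 in ubiquitous progerin and 1.07 in VSMC progerin, and so did the matrix protein gene Ecm1, by 0.66 and 0.97.

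Of 15 proteases and cross-linkers that act on matrix proteins, 14 were tested. In VSMC progerin 12 rose and 0 fell by edgeR (median log2 change 1.27). In ubiquitous progerin 4 rose and 4 fell (median 0.0041), a total near the share of all genes called. The gelatinase gene Mmp2 averaged 652 ± 17 CPM in VSMC progerin against 215 ± 11 CPM in lamin C-only control (SD). It also rose in ubiquitous progerin, by 0.23 on the log2 scale. Htra1, a secreted serine protease, averaged 293 ± 18 CPM in ubiquitous progerin against 523 ± 36 CPM in wild-type control (SD). Its mean was 1184 ± 69 CPM in VSMC progerin against 544 ± 21 CPM in lamin C-only control (SD). Mmp14, a membrane-bound metalloproteinase, rose in both, by 1.36 ± 0.09 and 1.63 ± 0.09 on the log2 scale. Lox, which cross-links collagen and elastin, fell by 0.88 in ubiquitous progerin and rose by 0.47 in VSMC progerin.

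Receptors of these proteins, mostly integrins, were divided: 6 of 17 rose and 9 fell in ubiquitous progerin (median -0.24), and 5 rose and 5 fell in VSMC progerin (median 0.10). Itga9, the integrin chain that binds tenascin-C, fell in both, to 188 CPM in ubiquitous progerin against 410 CPM in wild-type control and to 230 CPM in VSMC progerin against 402 CPM in lamin C-only control. Itgb1, the shared beta-1 chain, fell by 0.55 in ubiquitous progerin. Itga3, an integrin chain of laminin receptors, fell by 0.24 in ubiquitous progerin and by 1.00 in VSMC progerin. Ddr1, a collagen receptor kinase, fell by 0.74 in ubiquitous progerin and by 0.39 in VSMC progerin.

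Genes that make, degrade or bind hyaluronan, the ligand of Cd44, rose in 3 and fell in 5 of 15 in ubiquitous progerin (median 0.29). In VSMC progerin 4 rose and 2 fell (median 0.40). Both totals were near the shares of all genes called, 54.6% and 42.0%. The hyaluronidase genes Hyal1 and Hyal2 averaged 50.9 and 51.9 CPM in ubiquitous progerin against 102 and 200 CPM in wild-type control. Hyal1 also fell in VSMC progerin, by 0.43 on the log2 scale. Vcan, the hyaluronan-binding proteoglycan versican, rose in both models, by 1.34 ± 0.17 in ubiquitous progerin and 1.29 ± 0.16 in VSMC progerin. Vcan was also higher in lamin C-only control than in wild-type control, at 7.80 against 4.21 CPM (log2 change 0.89, adjusted p = 0.018 by edgeR).

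A list around Mgp held the vitamin K cycle, other carboxylated proteins and the calcification-related genes Enpp1, Ahsg and Spp1. In ubiquitous progerin 3 of 8 genes tested rose and 5 fell (median -0.49), and in VSMC progerin 2 rose and 3 fell (median 0.06). Ggcx, the carboxylase that activates matrix Gla protein, averaged 11.9 ± 1.2 CPM in ubiquitous progerin against 30.1 ± 3.5 CPM in wild-type control (SD). Its log2 change was -1.34 ± 0.13 (SE, adjusted p = 5.7e-08 by edgeR). Vkorc1l1, a vitamin K epoxide reductase, fell by 0.69 in ubiquitous progerin and by 0.31 in VSMC progerin. Gas6, a carboxylated ligand of TAM receptors, fell in both models, by 0.86 in ubiquitous progerin and 0.82 in VSMC progerin.

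Of 13 genes of TGF-beta signalling and response, 8 went up and 3 down in VSMC progerin (median 0.43), and 3 up and 6 down in ubiquitous progerin (median -0.19), by edgeR. The list holds Col1a1, the fibrillar collagen gene, which averaged 414 CPM in VSMC progerin against 17.5 CPM in lamin C-only control. Pmepa1, a target and feedback inhibitor of the pathway, averaged 46.6 CPM in ubiquitous progerin against 113 CPM in wild-type control, and 244 CPM in VSMC progerin against 109 CPM in lamin C-only control. The ligand gene Tgfb1 rose by 0.71 ± 0.09 in VSMC progerin. Skil, a repressor of SMAD proteins, fell by 0.61 in ubiquitous progerin and rose by 0.30 in VSMC progerin. The receptor gene Tgfbr1 rose by 0.61 ± 0.08 in ubiquitous progerin and by 0.48 ± 0.08 in VSMC progerin.

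**Figure D5:**
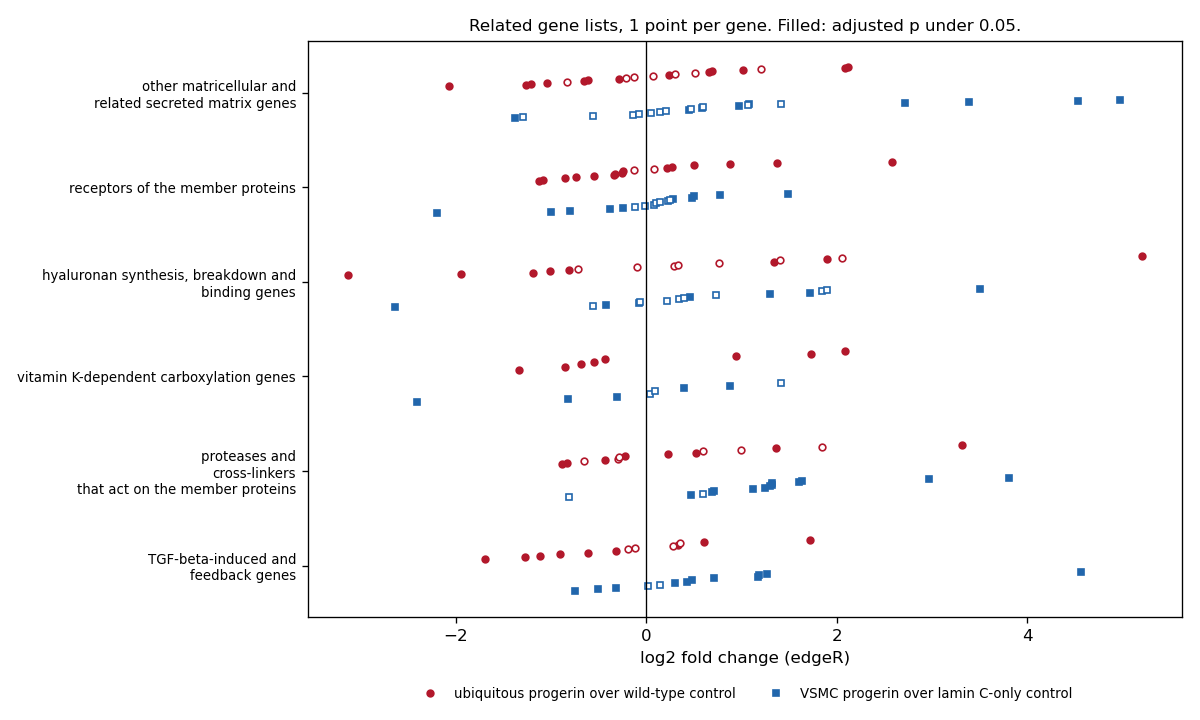
log2 fold change (edgeR) of each tested gene of 6 related lists, in ubiquitous progerin over wild-type control (circles) and VSMC progerin over lamin C-only control (squares); filled symbols passed an adjusted p of 0.05. In the list of proteases and cross-linkers 12 of 14 squares are filled and to the right of 0, while the circles spread to both sides.

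Across the 14 libraries, which share their 4 groups, Pearson's r of log2 CPM is given as a description. It was 0.98 between Sparc and Mgp, 0.95 between Sparc and Fn1, and 0.91 between Fn1 and Mgp. Thbs2 had an r of 0.91 with Sparc, 0.91 with Fn1, 0.90 with Postn and 0.86 with Mgp, and Tgfbi one of 0.905 with Cd44. Among all genes averaging 2 or more on the log2 CPM scale, the most similar to Sparc were Sdc1 (r = 0.99), which encodes the heparan sulfate proteoglycan syndecan-1, and the fibrillar collagen gene Col5a2 (0.99), and those most similar to Mgp were Htra1 and Col5a2 (0.99 each). Postn was nearest to Col1a1 (0.95) and Lgals1 (0.95), Thbs2 to Ifitm3 and St14 (0.97 each), Fn1 to the elastic fibre gene Fbln5 (0.96) and Slc4a8 (0.96), and Tnc to Col6a2 (0.90) and St14 (0.89). Tgfbi was nearest to Arhgap45 (0.99) and the receptor kinase gene Axl (0.98), and Cd44 to the leukocyte genes Rac2 and Lcp1 (0.98 each), which averaged 15.03 and 88.3 CPM in ubiquitous progerin against 1.57 and 7.33 CPM in wild-type control. Sparcl1 was nearest to Gapdh and Zswim7 (0.94 each), and Thbs1 had no close match, with Eci2 and Prxl2b at 0.82.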

How the data were processed

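Polyadenylated RNA from 100 ng of total RNA per pool was sequenced with a directional kit, per the labels' protocols. The authors deposited a table of RSEM estimated counts and a table of limma-voom log2 values (13034 genes). The submitters' processing notes name STAR 2.7.10b, RSEM 1.2.28, limma, cutadapt 4.1, Trim Galore 0.6.10 and the GRCm38 build. Settings, annotation release and counting strand are not stated in the sources used here, and overlapping or antisense genes could share reads.

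Estimated counts were rounded, passed through filterByExpr (min.count 10, min.total.count 15, min.prop 0.7, by group), which kept 14269 genes, then TMM-scaled and tested in 1 fit of all 14 libraries with edgeR 4.0.16 (R 4.3.3, quasi-likelihood test, robust), with Benjamini-Hochberg adjustment over all genes tested and a threshold of 0.05. Each SE was derived from the fitted log2 change and its F statistic. TMM-scaled CPM serve as levels. Alternatives used DESeq2 1.42.0, limma 3.58.1, other scalings, no filter, fewer libraries and a block on pool number. The steps were tested on simulated counts, with the same dispersion for all genes. There 46% of the genes given a log2 change of 0.5 in ubiquitous progerin were called, and 100% at -1, 1 or 2. A change near 0.5 can therefore go uncalled. Replicates were not duplicates, since their chi-square per degree of freedom was at least 9.54. Positions and exon lengths are from GENCODE M21, which matched all 10 members and 22311 of 22430 identifiers. Promoters are from RefSeq (GRCm38.p6).

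The members and lists were chosen with earlier results of these data known. The named genes are the 10 members, Lmna, the 2 tested genes with the highest Pearson r to each member, and up to 3 called genes with the smallest p per pathway list in each progerin comparison. Apoe, the single markers (Pi16, Dpt, Pdgfra, Ly6a, Gsn, Tagln, Acta2, Myh11, Pecam1, Vwf, Tek, Emcn and Kdr), Enpp1 and Spp1 were named after their values were seen.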

Additional observations from a re-analysis of the deposited data

Results flagged for a closer look

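Among 20 sets of 4 control pools (10 genes in 2 groups), 3 held a pool far from the rest, where chance flags about 1 in 20 sets. Postn was 13.4 CPM in wild-type control pool 2, next to 3.69 CPM in the second-highest pool. Thbs2 was 4.12 CPM in lamin C-only control pool 3, next to 2.64 CPM. Tgfbi was 26.9 CPM in lamin C-only control pool 4, next to 11.3 CPM.

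For 8 genes the progerin effects differed between both models by the direct edgeR test of ubiquitous progerin minus VSMC progerin effect. The log2 difference was -2.38 for Sparc, 1.61 for Sparcl1, -3.90 for Postn, -3.93 for Tnc, -3.29 for Thbs2, -0.79 for Fn1, 1.43 for Tgfbi and -1.66 for Mgp.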

How the results depend on the processing

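Over 24 alternatives, the 21 called values of the 10 genes in the 4 comparisons were recomputed 405 times, and 404 of these kept their direction and call; the exception was the Tnc difference without wild-type control pool 2. For lamin C-only against wild-type control, the number of genes called was 25 in the reported fit and 103 with DESeq2. It was 40 with no filter and 16 with only the groups compared. An alternative chosen after seeing the data, without both control pools (here and below wild-type pool 1 and lamin C-only pool 4), gave 15. The flagged wild-type pool 2 and lamin C-only pool 3 stayed in that alternative. Leaving out 1 pool gave 8 to 45. Members called lower in ubiquitous progerin ranged from 2 to 4 when 1 pool was left out, 4 being without wild-type pool 4. Uncalled values that changed sign were Sparcl1 in VSMC progerin (0.0084 with upper-quartile scaling, 0.036 with limma-voom, 0.0424 with the deposited log2 values, 0.12 with the replicate block and 0.30 without both control pools) and, in lamin C-only against wild-type control, Sparc (0.006 with upper-quartile scaling, 0.0036 with no filter, 0.001 with only the groups compared and 0.0008 without mitochondrially encoded genes, also chosen after seeing the data), Tgfbi (-0.0222) and Mgp (0.0187), the last pair without both control pools. The cause was not tested. When 1 pool was left out, uncalled log2 changes that crossed 0 ranged from -0.218 to 0.30 for Sparcl1 in VSMC progerin, -1.828 to 0.9718 for Tnc in ubiquitous progerin, -0.0591 to 0.2848 for the Cd44 difference and, between the controls, -0.0193 to 0.0202 for Sparc, -1.448 to 0.3687 for Tnc, -0.073 to 0.4977 for Tgfbi and -0.0746 to 0.0139 for Mgp. With only the groups compared, the difference of effects was not run.

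Pool numbers are shared by the groups but nothing ties them to a batch: same-numbered pools deviated with correlations of -0.06 to 0.02 over 19 pairs, none above 0.1, and 0 of 14 libraries was closest to one of its own number. With the replicate block the genes called were 7536 in ubiquitous progerin, 5806 in VSMC progerin, 32 between controls and 6253 for the difference, and Fn1 in ubiquitous progerin was called lower (-0.162, adjusted p = 0.040 by edgeR).

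Depth limits Tnc outside VSMC progerin, where pools held 0 to 27 counts.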
